A study of Homo sapiens with 16 samples.

Results

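UACC62P is the parental line of a pair of human melanoma cell lines whose growth is driven by mutant BRAF. It was kept for 6 h in 10 uM CCG-222740, which blocks transcription driven by the MRTF/SRF pathway, and was set against untreated UACC62P (0 h). The comparison was chosen by group label and took in 4 of the 16 libraries of the series, 2 per group, with every gene tested. The tested libraries are UACC62P, 10 uM CCG-222740, 6 h, replicates 1 and 2. The untreated libraries are UACC62P, treatment none, 0 h, replicates 1 and 2. Set beside them are UACC62P after 24 h in 10 uM CCG-222740 (2 libraries) or 2 h (1 library used), and UACC62R at 6 h in 10 uM CCG-222740 and at 0 h (2 libraries each). UACC62R is a derivative selected for 2 months in 2 uM of the BRAF inhibitor vemurafenib and kept in it, a step that UACC62P did not go through. The sources used here do not say whether treated UACC62R stayed in vemurafenib. All were grown in DMEM with 10% serum.

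The untreated libraries carry no vehicle, so effects of CCG-222740, of its vehicle and of 6 h more in culture cannot be told apart in this comparison. The labels describe seeding into smaller plates for the treated cells and not for the untreated cells, so a separate culture run cannot be told apart from treatment either. Whether the 2 replicates of a group came from separate cultures is not stated in the labels. The p-values therefore reflect the spread between these libraries, part of which may be technical. In these bulk libraries a lower level can come from fewer cells that express a gene or from less RNA per cell, which cannot be told apart.

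CCG-222740 belongs to a group of compounds developed against transcription by SRF with its coactivators MRTFA and MRTFB. Actin monomers hold MRTF in the cytoplasm. When actin is assembled into filaments, MRTF enters the nucleus and switches on genes of the cytoskeleton and of cell adhesion. Among the stress programmes described below, zinc and other metals act through the factor MTF1 on metallothionein genes, misfolded proteins in the cytosol act through HSF1 on chaperone genes, electrophiles act through NRF2 on HMOX1 and glutathione genes, and strain on the endoplasmic reticulum (ER) acts through XBP1, ATF6 and ATF4.

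The 4 libraries held 27.3 to 33.3 M reads in genes. A further library, labelled UACC62P 2 h replicate 1, had the profile of UACC62R and raised the spread shared by all groups, so the fit held the other 15 libraries. Reads that did not align made up 10.2 and 9.93% of all reads at 6 h, against 17.8 and 14.5% at 0 h. Their part in the results was not tested. Reads of the mitochondrial genome were 1.54 and 2.20% of the reads in genes at 6 h and 2.09 and 2.44% at 0 h. The 6 melanocyte lineage markers were all detected and summed to 1218 and 1137 CPM (reads of a gene relative to the TMM-scaled library size) at 6 h, against 1450 and 1289 CPM at 0 h. Marker sums of other cell types were lower. The 5 fibroblast genes summed to 30.6 and 29.3 CPM at 6 h against 29.6 and 28.6 CPM at 0 h. LUM alone gave 23.1 and 24.5 CPM of this at 6 h. The 4 epithelial genes summed to 10.4 and 10.1 CPM against 11.7 and 10.5 CPM, nearly all from ESRP1. The 4 endothelial genes summed to 3.31 and 3.84 CPM against 3.19 and 3.68 CPM. The 6 blood genes summed to 0.65 and 1.11 CPM against 1.56 and 1.15 CPM. In the epithelial, endothelial and blood lists 1, 1 and 3 markers were at 0 reads in all 4 libraries, and in the fibroblast list 0.

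Of 20280 genes tested, 308 (1.52%) were called, 172 higher at 6 h (0.848%) and 136 lower (0.671%), at an adjusted p under 0.05 in edgeR's quasi-likelihood test. The median log2 fold change was 0.62 over the higher genes and -0.58 over the lower ones, and 0 over all genes tested. A change of 2-fold or more was found for 31 of the higher and 18 of the lower genes. The called genes included those of metal-binding and metal-transporting proteins, cytosolic chaperones and haem oxygenase on the higher side, and of a zinc importer, enzymes of chondroitin and dermatan sulphate synthesis and ER-resident proteins on the lower side. Blocked on the replicate number, the test called 739 higher (3.64%) and 676 lower genes (3.33%), among them all 172 and all 136. In all 16 libraries it called 7 and 3. The replicates at 6 h differed in level: 116 of the 172 higher genes (67.4%) stood higher in replicate 2 than in replicate 1. So did 30 of the 136 lower genes (22.1%), against 8842 of 20280 genes tested (43.6%). At 0 h replicate 2 was above replicate 1 for 54 of the 172, 48 of the 136 and 9010 of the 20280. The untreated replicates thus differed too, and these counts do not separate response from starting level.

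**Figure D1:**
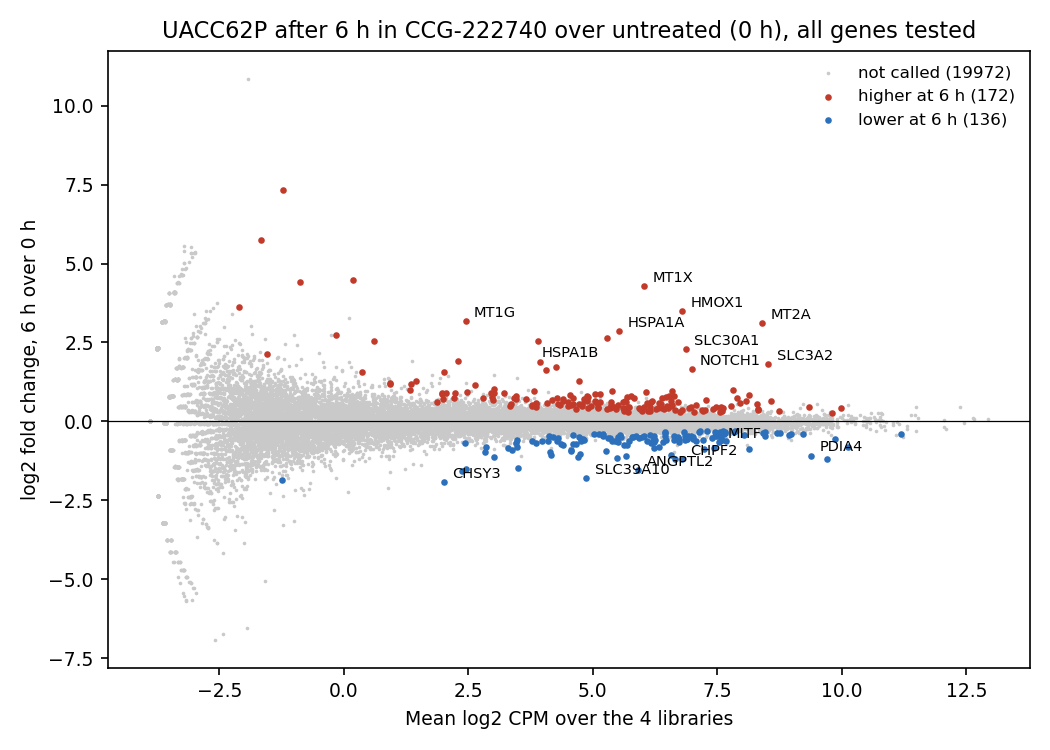
Log2 fold change (6 h over 0 h, vertical) against the mean log2 CPM over the 4 libraries (horizontal) for 20280 genes tested in UACC62P, with 172 genes higher at 6 h in red, 136 lower in blue and the others in grey. MT1X, MT2A, HSPA1A and HMOX1 lie well above 0, and SLC39A10 and CHSY3 well below.

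Metal-responsive genes were among those with large rises. The promoters of MT1X, MT2A and SLC30A1 are shown because these genes were higher at 6 h and because MTF1 binds short metal response elements in genes of this kind. Each sequence holds the 250 bases before the RefSeq start site in GRCh38.p14, 5′ to 3′ on the gene's strand, with capitals on matches to the core TGCACNC or TGCGCNC on either strand.
MT1X, chr16:56682220-56682469, plus strand: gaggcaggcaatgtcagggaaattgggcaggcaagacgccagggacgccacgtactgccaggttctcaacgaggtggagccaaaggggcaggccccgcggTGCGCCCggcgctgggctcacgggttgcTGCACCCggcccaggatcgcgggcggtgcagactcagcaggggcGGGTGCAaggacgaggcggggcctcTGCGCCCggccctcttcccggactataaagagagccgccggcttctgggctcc
MT2A, chr16:56608334-56608583, plus strand: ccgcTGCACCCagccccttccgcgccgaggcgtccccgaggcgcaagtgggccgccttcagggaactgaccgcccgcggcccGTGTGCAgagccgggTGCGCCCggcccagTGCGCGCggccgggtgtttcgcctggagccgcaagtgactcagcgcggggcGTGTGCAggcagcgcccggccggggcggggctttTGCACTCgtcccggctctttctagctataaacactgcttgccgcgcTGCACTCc
SLC30A1, chr1:211579162-211579411, minus strand: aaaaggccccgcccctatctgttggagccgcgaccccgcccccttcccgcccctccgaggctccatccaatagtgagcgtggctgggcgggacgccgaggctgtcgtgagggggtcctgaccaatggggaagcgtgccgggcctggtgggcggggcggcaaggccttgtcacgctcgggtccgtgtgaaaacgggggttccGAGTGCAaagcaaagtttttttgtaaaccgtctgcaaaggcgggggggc
A match was counted in a window of 300 bases, which adds 50 bases after the start site. MT1X had 4 matches there, MT2A had 8 and SLC30A1 had 2. The core is short: 44.9% of the 136 windows found for higher genes and 43.3% of the 104 for lower genes held a match, against 37.7% of 12578 windows of genes tested and 29.3% of all 27305 RefSeq windows. Windows with 3 or more matches made up 8.09% of those of higher genes (11 genes) and 0% of those of lower genes, against 3.25% of those of genes tested and 2.27% of all. MT1X and MT2A, shown above, are among the 11. The cut at 3 was added to the planned share of windows with any match. A match describes the letters and not binding.

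The metallothioneins are small cysteine-rich proteins that bind zinc and copper. MT1X (ENSG00000187193) stood at 231 and 355 CPM at 6 h, against 16.1 and 13.6 CPM at 0 h, a log2 fold change of 4.30 ± 0.20 (SE; adjusted p = 4e-08). MT2A (ENSG00000125148) stood at 895 and 1098 CPM at 6 h, against 124 and 105 CPM at 0 h (3.12 ± 0.11; adjusted p = 1.4e-09). MT1G (ENSG00000125144) stood at 16 and 16.5 CPM at 6 h, against 2.11 and 1.44 CPM at 0 h (3.19 ± 0.26; adjusted p = 1.8e-05). In all 3 genes both treated libraries lay above both untreated libraries, as in 21.9% of all genes tested (21.6% had both below). The 3 were the only ones of 11 metallothionein genes listed that passed the filter on low counts. The other 8, including MT1E, MT1F and MT3, had at most 2 reads in any of the 4 libraries. MT1 genes have near-identical copies, and reads placed on more than 1 gene were not counted, so their levels are uncertain. The pseudogenes MT1P3, MT2P1 and MT1XP1 were also called higher, and their reads cannot be told apart with certainty from those of the genes.

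Zinc transporters moved in opposite directions at the ends of the list. SLC30A1, which exports zinc from the cytosol across the plasma membrane, stood at 220 and 297 CPM at 6 h, against 57.1 and 49.3 CPM at 0 h (log2 fold change 2.28 ± 0.17; adjusted p = 1.0e-05). SLC39A10, which imports zinc, stood at 15.9 and 15.4 CPM at 6 h, against 56.7 and 51.8 CPM at 0 h (-1.79 ± 0.16; adjusted p = 5.9e-05). The treated and untreated libraries did not overlap for either gene, as was so for every called gene. SLC30A1 and SLC39A10 were the called members among 22 tested genes of zinc transport and MTF1. The median of the list was 0.07, and with the replicate block 4 were higher and 1 lower. MTF1, the zinc-sensing factor, stood at 50.2 and 50.9 CPM at 6 h and 47.7 and 47.0 CPM at 0 h (0.09 ± 0.09; adjusted p = 0.709).

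Of all gene lists, cytosolic chaperones had the most genes called higher, 7 of 25. The promoters of HSPA1A and HSPA1B, which encode the inducible HSP70 protein, are shown for the heat shock element that HSF1 binds, with capitals on matches to GAANNTTC or TTCNNGAA (both strands searched; the 2 spellings are each their own reverse complement).
HSPA1A, chr6:31815293-31815542, plus strand: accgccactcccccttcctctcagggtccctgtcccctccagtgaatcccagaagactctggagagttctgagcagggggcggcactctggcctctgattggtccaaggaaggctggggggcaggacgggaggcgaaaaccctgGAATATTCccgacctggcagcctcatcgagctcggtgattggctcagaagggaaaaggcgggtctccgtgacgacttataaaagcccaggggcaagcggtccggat
HSPA1B, chr6:31827488-31827737, plus strand: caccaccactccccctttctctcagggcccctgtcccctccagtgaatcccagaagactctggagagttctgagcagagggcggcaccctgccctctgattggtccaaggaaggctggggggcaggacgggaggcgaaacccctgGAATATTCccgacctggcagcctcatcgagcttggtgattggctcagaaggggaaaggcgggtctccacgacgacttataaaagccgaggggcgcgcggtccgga
Each held 1 match. Such a match was found in 14.7% of the windows of higher genes and 9.62% of those of lower genes, against 10.5% of those of genes tested and 13.7% of all windows. The windows of the 2 genes were identical at 277 of 299 aligned bases (92.6%), and as the genes themselves are near-identical copies, their separate values are uncertain.

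HSPA1A (ENSG00000204389) stood at 73.5 and 190.0 CPM at 6 h, against 17.2 and 18.9 CPM at 0 h (log2 fold change 2.86 ± 0.34; adjusted p = 0.00080). HSPA1B stood at 52.8 and 156 CPM at 6 h, against 16 and 17.3 CPM at 0 h (2.65 ± 0.39; adjusted p = 0.0035). Replicate 2 stood well above replicate 1 at 6 h for both genes, and both replicates lay above the untreated libraries. Without replicate 2 at 6 h the log2 fold change was 2.02 for HSPA1A and 1.67 for HSPA1B. HSPH1, an HSP110 cochaperone of HSP70, stood at 250 and 392 CPM at 6 h, against 153 and 168 CPM at 0 h (1.00 ± 0.18; adjusted p = 0.014). The cochaperone BAG3 rose by 0.69 ± 0.12, the small heat shock protein HSPB1 by 0.65 ± 0.12, and the HSP90 cochaperone FKBP4 by 0.54 ± 0.07. No chaperone gene of the 25 tested was called lower, and with the replicate block 18 were higher and 0 lower. The median of the list was 0.45, against 0 over all genes tested. HSF1 itself stood at 103 and 102 CPM at 6 h and 110 and 102 CPM at 0 h (-0.05 ± 0.07; adjusted p = 0.842).

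Haem oxygenase 1 (HMOX1, ENSG00000100292), which breaks down haem and is a classical NRF2 target, stood at 128 and 761 CPM at 6 h, against 35.2 and 42.9 CPM at 0 h. Its log2 fold change was 3.51 ± 0.55 (adjusted p = 0.0053), and replicate 2 at 6 h lay far above replicate 1. Without that replicate the log2 fold change of HMOX1 was 1.72, and without replicate 1 it was 4.28. The call of HMOX1 was lost without either of the 0 h libraries, as was that of HSPA1B. GCLM, the modifier subunit of the enzyme that makes the glutathione precursor, stood at 36.3 and 54.0 CPM at 6 h, against 22.2 and 26.9 CPM at 0 h (0.88 ± 0.18; adjusted p = 0.029). SLC7A11, the cystine importer, stood at 110 and 135 CPM at 6 h, against 75.3 and 63.7 CPM at 0 h (0.81 ± 0.12; adjusted p = 0.0034). These 3 were the called members of 28 tested NRF2 targets, and with the block 6 were higher. NQO1 changed by 0.05 and GCLC by 0.11, and neither was called. NFE2L2, the gene of NRF2, stood at 217 and 220 CPM at 6 h and 244 and 256 CPM at 0 h (-0.19 ± 0.08; adjusted p = 0.33). The antioxidant response element TGACNNNGC that NRF2 binds matched in 18.4% of the promoter windows of higher genes, 17.3% of those of lower genes and 15.2% of those of genes tested. MAFG, a small MAF partner of NRF2, rose by 0.40 ± 0.09 and was the called member of 7 regulators of the pathway.

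**Figure D2:**
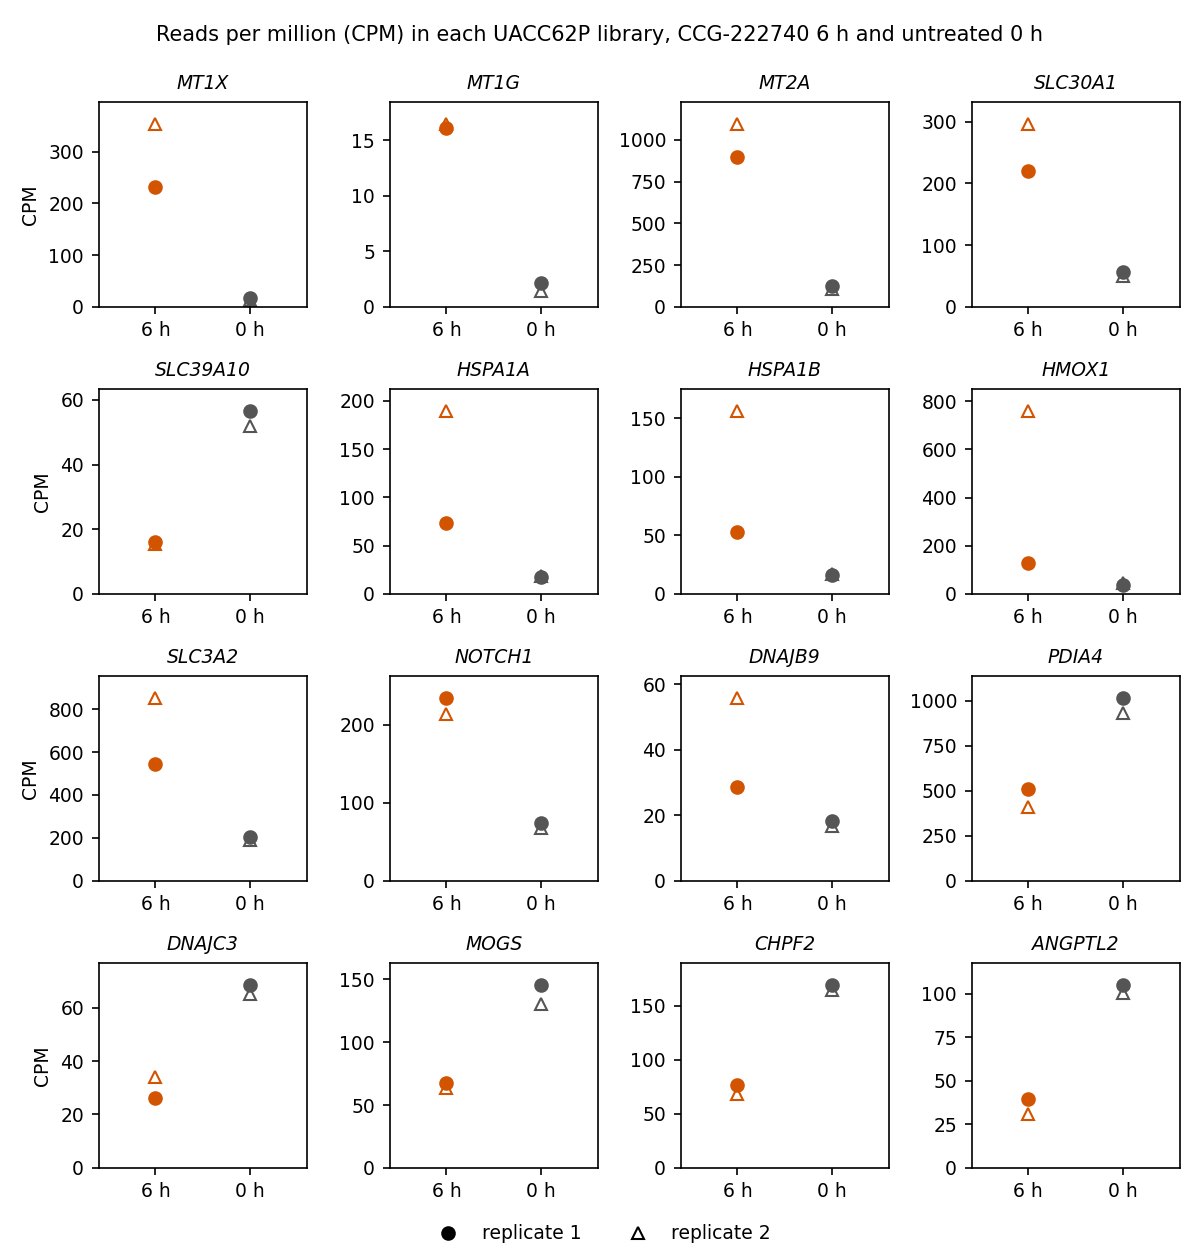
CPM (vertical, linear from 0) in each UACC62P library at 6 h (left, orange) and 0 h (right, grey) for 16 genes, with replicate 1 as a filled circle and replicate 2 as an open triangle. HMOX1, HSPA1A and HSPA1B show the widest spread between the 6 h replicates, and no gene shown has a treated library between the untreated ones.

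Transport of amino acids was a further group with large changes. SLC3A2, the heavy chain that carries the light chains SLC7A5 and SLC7A11 to the cell surface, stood at 545 and 854 CPM at 6 h, against 203 and 192 CPM at 0 h (log2 fold change 1.82 ± 0.15; adjusted p = 2.6e-05). SLC38A9, a lysosomal amino acid sensor for mTORC1, stood at 11.4 and 11.6 CPM at 6 h, against 5.64 and 5.51 CPM at 0 h (1.04 ± 0.15; adjusted p = 0.0035). With SLC7A11 they were the called members of 22 tested transporters, all higher, and with the block 6 were higher and 1 lower. SLC7A5 changed by 0.09 and was not called. Among 24 tested genes of the ATF4 and amino acid response, 0 were called in either direction, with a median of 0.20. An unadjusted p under 0.05 was found for 5 of them, and DESeq2 called 1. With the block 7 were higher, including CHAC1 at 0.75, DDIT4 at 0.73, SESN2 at 0.51 and ASNS at 0.34. ATF4 itself stood at 349 and 353 CPM at 6 h, against 321 and 240 CPM at 0 h (0.32 ± 0.11; adjusted p = 0.198, and 0.020 with the block).

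Genes of the endoplasmic reticulum were split, with more ER chaperones called lower than higher. PDIA4, a protein disulphide isomerase, stood at 512 and 411 CPM at 6 h, against 1018 and 931 CPM at 0 h (log2 fold change -1.08 ± 0.11; adjusted p = 0.00025). DNAJC3, a cochaperone of the ER HSP70 protein, stood at 26.2 and 34.1 CPM at 6 h, against 68.6 and 65.0 CPM at 0 h (-1.15 ± 0.12; adjusted p = 0.00018). The secreted ER stress factor MANF fell by 0.73 and the nucleotide exchange factor SIL1 by 0.41 on the log2 scale. DNAJB9, a cochaperone and target of XBP1, went the other way, with 28.7 and 55.9 CPM at 6 h against 18.2 and 16.7 CPM at 0 h (1.27 ± 0.23; adjusted p = 0.011). Of 25 tested genes 1 was higher and 4 were lower, and with the block 3 and 5. The list as a whole did not lean either way: 13 of the 25 lay above 0, and the median was 0.01. HSPA5, the ER HSP70 protein that marks the unfolded protein response, changed by -0.04, HSP90B1 by -0.07 and XBP1 by 0.27 ± 0.12 (adjusted p = 0.32), and none of them was called.

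In protein translocation and N-glycosylation, ALG2, a mannosyltransferase that builds the glycan precursor, rose by 0.81 ± 0.11, and SSR1, a subunit of the translocon-associated complex, by 0.39 ± 0.07. MOGS, the glucosidase that trims the first glucose from the glycan, stood at 67.5 and 63.8 CPM at 6 h, against 146 and 131 CPM at 0 h (-1.07 ± 0.09; adjusted p = 1.8e-05). Over the 40 tested genes 2 were higher and 1 lower, and with the block 12 and 1, with a median of 0.16. In vesicle transport, 1 of 31 tested genes was higher, the COPI subunit COPE (0.31 ± 0.07), and 1 lower, the cargo receptor LMAN1 (-0.63 ± 0.12). With the block 3 were higher and 2 lower.

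Enzymes of glycosaminoglycan synthesis included 4 of the lower genes, all of them acting on chondroitin or dermatan sulphate. CHPF2, a chondroitin polymerizing factor, stood at 76.7 and 68.1 CPM at 6 h, against 169 and 164 CPM at 0 h (log2 fold change -1.20 ± 0.09; adjusted p = 1.0e-05). CHST14, the dermatan 4-O-sulphotransferase, stood at 18.5 and 16.7 CPM at 6 h, against 43.1 and 34.2 CPM at 0 h (-1.14 ± 0.11; adjusted p = 0.00016). The chondroitin synthases CHSY3 and CHSY1 fell by 1.91 and 0.58 on the log2 scale, CHSY3 at a low level of 2.79 and 1.37 CPM at 6 h against 7.69 and 8.14 CPM at 0 h. Without 6 h replicate 1 the log2 fold change of CHSY3 was -2.53. CSGALNACT2, which starts the chondroitin chain, rose by 0.54 ± 0.12. In all, 1 of 31 tested genes was higher and 4 were lower, and with the block 2 and 6. The heparan sulphate polymerases EXT1 and EXT2 changed by 0.10 and 0.17 and were not called. SDC3, a cell surface proteoglycan, stood at 586 and 527 CPM at 6 h, against 1430 and 1102 CPM at 0 h (-1.19 ± 0.24; adjusted p = 0.026).

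Among 40 tested lysosomal genes 3 were higher and 3 lower, and with the block 5 and 5. The factor TFE3 rose by 0.32 ± 0.07, the calcium channel MCOLN1 by 0.34 ± 0.08 and the cholesterol transporter NPC1 by 0.44 ± 0.09. MINPP1, an inositol polyphosphate phosphatase, fell by 1.04, and the heparan sulphate degrading enzymes NAGLU and SGSH fell by 0.95 and 0.75 on the log2 scale. SGSH stood at 39.3 and 39.7 CPM at 6 h, against 70.5 and 62.3 CPM at 0 h (adjusted p = 0.0012). These 3 enzymes were lower in both treated libraries than in both untreated libraries, as were all 136 genes called lower and 21.6% of all genes tested.

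Of 31 tested cytoskeletal targets of MRTF and SRF, the genes that the named pathway of the compound controls, 0 were higher and 1 was lower, with a median of -0.03. With the block 3 were higher and 4 lower. The lower gene was ITGA5, the integrin alpha 5 subunit of the fibronectin receptor, with 241 and 179 CPM at 6 h against 432 and 340 CPM at 0 h (-0.88 ± 0.14; adjusted p = 0.0066). ACTA2 stood at 9.20 and 9.83 CPM at 6 h and 10.2 and 8.58 CPM at 0 h (0.02 ± 0.12; adjusted p = 0.987). TAGLN stood at 0.74 and 0.96 CPM at 6 h and 1.25 and 0.72 CPM at 0 h, too low for a change of this size to be read. The coactivator genes MRTFA and MRTFB changed by -0.08 ± 0.09 and -0.09 ± 0.16, and SRF by -0.02 ± 0.09, with adjusted p of 0.79 or more.

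Among 22 tested YAP/TAZ targets 0 were called (4 at an unadjusted p under 0.05, and 2 by DESeq2), and with the block 0 were higher and 2 lower. CCN2, a secreted matricellular protein that MRTF and YAP both activate, stood at 14.2 and 14.4 CPM at 6 h, against 18.5 and 21.1 CPM at 0 h (-0.47 ± 0.14; adjusted p = 0.112, and 0.036 with the block). CCN1 changed by -0.33 ± 0.15 (adjusted p = 0.345). ANKRD1 had 0.12 and 0 CPM at 6 h and 0.07 and 0 CPM at 0 h, at which no change can be read. CCN3, a member of the same protein family, was lower, with 69.3 and 64.4 CPM at 6 h against 147 and 156 CPM at 0 h (-1.18 ± 0.12; adjusted p = 0.00014). Of 26 tested immediate early genes JUN was higher (0.43 ± 0.09) and the nuclear receptor NR4A3 lower (-0.96 ± 0.22), and with the block 2 were higher and 3 lower.

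**Figure D3:**
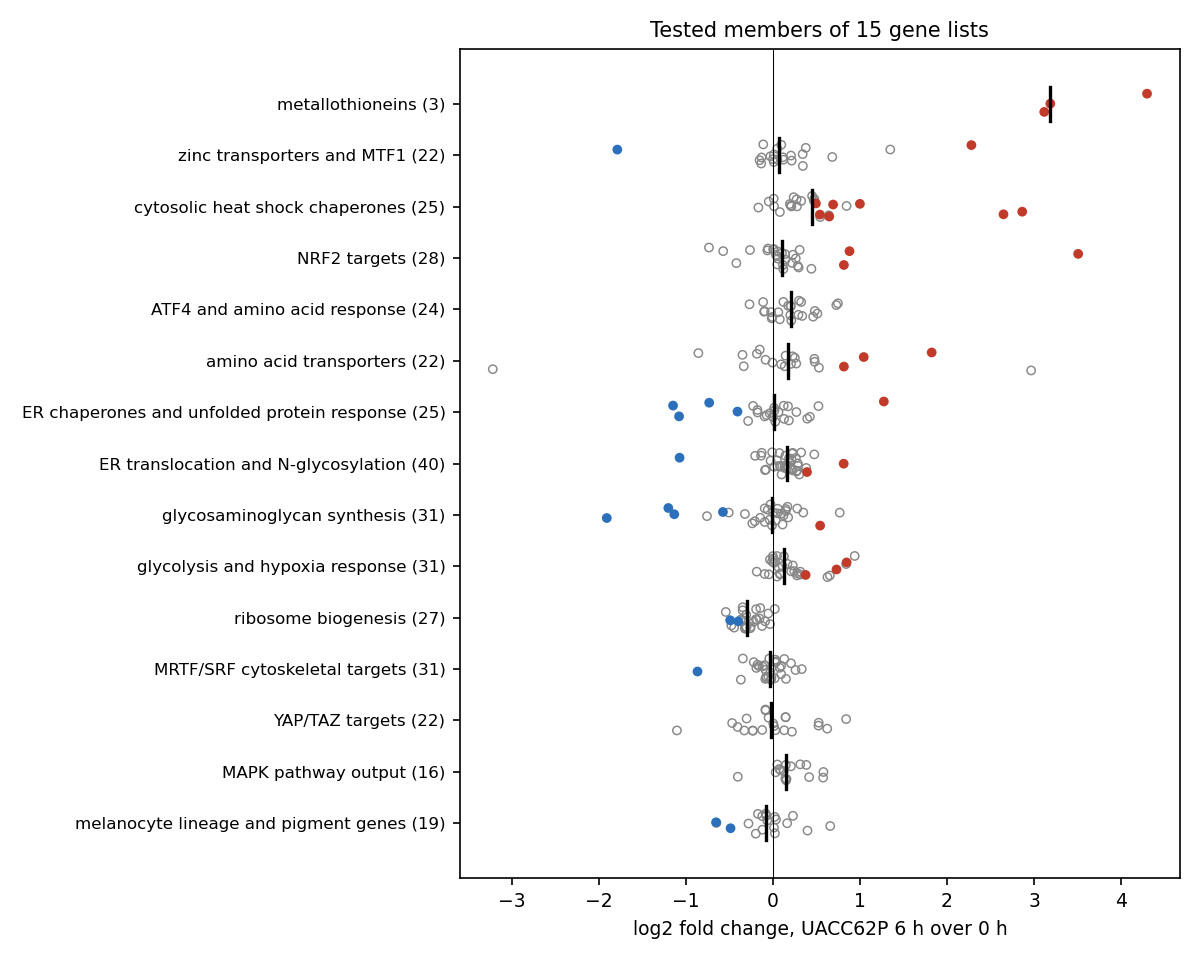
Log2 fold change (6 h over 0 h, horizontal) of the tested members of 15 gene lists (rows, number tested in brackets), with called genes filled in red (higher) or blue (lower), other genes open and the list median as a black bar. The medians of metallothioneins (3.19) and chaperones (0.45) lie right of 0 and that of ribosome biogenesis (-0.30) left of it, while MRTF/SRF and YAP/TAZ targets scatter around 0.

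In the melanocyte lineage the factor MITF was lower. It stood at 165 and 132 CPM at 6 h, against 248 and 219 CPM at 0 h (log2 fold change -0.65 ± 0.10; adjusted p = 0.0048). The groups did not overlap, as was so for every called gene. TFAP2A, a partner factor, fell by 0.49 on the log2 scale. These were the called members of 19 tested lineage and pigment genes, and with the block 3 were lower and 0 higher. SOX10, the lineage factor upstream of MITF, stood at 827 and 741 CPM at 6 h and 919 and 787 CPM at 0 h (-0.12 ± 0.10; adjusted p = 0.64). The pigment genes TYR, DCT and PMEL changed by -0.17, 0.01 and 0.40, and none was called. PMEL was low and its groups overlapped, at 1.39 and 3.40 CPM at 6 h and 1.45 and 2.16 CPM at 0 h. MLANA, also not called, stood at 93.25 and 119 CPM at 6 h, against 128 and 130 CPM at 0 h. PPARGC1A, a coactivator of mitochondrial genes, stood at 7.25 and 3.95 CPM at 6 h, against 15.2 and 9.69 CPM at 0 h (-1.14 ± 0.25; adjusted p = 0.035).

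Genes of ribosome biogenesis lay mostly below 0. UTP20 and WDR43, subunits of the small subunit processome, fell by 0.49 and 0.40 on the log2 scale and were the called members of 27 tested genes. With the block 18 were lower and 0 higher, including NCL at -0.48 and NPM1 at -0.35. Of the 27, 1 lay above 0, and the median of the list was -0.30, against 0 over all genes tested. In glycolysis and the hypoxia response 3 of 31 tested genes were higher, the glucose transporter SLC2A1 (0.85 ± 0.14) and the collagen prolyl hydroxylases P4HA2 (0.73 ± 0.10) and P4HA1 (0.37 ± 0.07). With the block 10 were higher. ADPGK, an ER glucokinase, was lower at 36.6 and 32.8 CPM at 6 h against 73.1 and 74.5 CPM at 0 h (-1.09 ± 0.12; adjusted p = 0.00049).

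Several genes outside the stress programmes were among those with the largest changes. NOTCH1, a receptor of cell fate signalling, stood at 235 and 214 CPM at 6 h, against 74.4 and 68.0 CPM at 0 h (log2 fold change 1.66 ± 0.15; adjusted p = 7.9e-05). ENTREP1 rose by 1.89 ± 0.21, the catenin family gene ARVCF by 1.93 ± 0.26, the protocadherin PCDH1 by 1.73 ± 0.28, SUSD5 by 1.63 ± 0.18, the clock repressor PER1 by 1.56 ± 0.22 and the glycosyltransferase gene MGAT5B by 1.29 ± 0.19. PER1 was the called member of 17 tested circadian genes. ANGPTL2, a secreted angiopoietin-like protein, stood at 39.6 and 30.9 CPM at 6 h, against 105 and 100.3 CPM at 0 h (-1.54 ± 0.11; adjusted p = 1.0e-05). With the lymphangiogenic factor VEGFC (-0.69 ± 0.13) it was 1 of 2 lower genes among 13 tested angiogenic factors. PCDHA7 fell by 1.48, LGI3 by 1.5 and TRIM48 by 1.06 on the log2 scale. PCDHA7 and TRIM48 have closely related neighbours, so their counts are uncertain. The membrane protease MMP14 was lower, with 964 and 719 CPM at 6 h against 1593 and 1377 CPM at 0 h (-0.82 ± 0.13), and the laminin chain LAMB1 higher, with 1260 and 1088 CPM against 938 and 813 CPM (0.42 ± 0.09), and they were the called members of 29 tested matrix genes. The cytokine LIF rose by 0.75 ± 0.11, the called member of 16 tested NF-kB targets and cytokines.

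Several programmes gave no call. In G1/S (25 tested genes), G2/M (24), p53 targets (20), the BCL2 family (13), cholesterol and fatty acid synthesis (31), the proteasome (26), aminoacyl-tRNA synthetases (20), aryl hydrocarbon receptor targets (6), interferon-stimulated genes (19), MAPK output (16) and dedifferentiated melanoma genes (17), 0 genes were called higher or lower in edgeR's test. Over these 11 lists 20 members had an unadjusted p under 0.05, and DESeq2 called 5. With the block the MAPK output list had 4 higher genes, the p53 list 2 higher and 1 lower, the tRNA synthetases 2 lower, the proteasome 1 lower, and G1/S, dedifferentiated melanoma and cholesterol synthesis 1 higher each. The genes with the smallest p in these lists included the ephrin receptor EPHA4 (0.58 ± 0.14; adjusted p = 0.052), the death receptor TNFRSF10B (0.26 ± 0.06; adjusted p = 0.059) and the kinase receptor EGFR (0.51 ± 0.12; adjusted p = 0.057). A p above the threshold does not show that these genes were unchanged. Signs leaned 1 way in some of the lists, where 48.9% of all genes tested lay above 0. Of the MAPK output genes 15 of 16 lay above 0 (median 0.15). In G2/M 4 of 24 did (median -0.10), and of the aryl hydrocarbon receptor targets 0 of 6 (median -0.09).

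Several of the strongest responses were smaller at 24 h than at 6 h. Of 20280 genes 70 were higher (0.345%) and 79 lower (0.390%) at 24 h than at 6 h, a comparison that shares its 6 h libraries with the one above. MT1X stood at 16.1 and 13.6 CPM at 0 h, 127 CPM in the 1 library used at 2 h, 231 and 355 CPM at 6 h and 52.9 and 48.8 CPM at 24 h, a log2 difference between 24 h and 6 h of -2.53 ± 0.18. HSPA1A was at 17.2 and 18.9 CPM at 0 h, 63.3 CPM at 2 h, 73.5 and 190.0 CPM at 6 h and 15.3 and 16.3 CPM at 24 h (-3.06 ± 0.35). The 24 h libraries of HSPA1A lay slightly below the untreated ones, a difference that was not called (-0.19 ± 0.35; adjusted p = 0.84). Those of MT1X stayed above the untreated ones (1.77 ± 0.19). MT2A fell less, to 586 and 611 CPM at 24 h against 895 and 1098 CPM at 6 h (-0.73 ± 0.10). HMOX1 (-2.74 ± 0.53), HSPA1B (-2.78 ± 0.40), MT1G (-1.96 ± 0.23) and SLC30A1 (-1.11 ± 0.16) were also lower at 24 h than at 6 h. In the chaperone list 10 of 25 genes were lower and 0 higher at 24 h than at 6 h.

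Other responses were not called lower at 24 h. SLC3A2 stood at 629 and 646 CPM at 24 h and 545 and 854 CPM at 6 h (difference -0.13 ± 0.15; adjusted p = 0.77), and SLC39A10 at 13.9 and 12.0 CPM at 24 h and 15.9 and 15.4 CPM at 6 h (-0.28 ± 0.17; adjusted p = 0.54). In ER translocation and N-glycosylation 13 of 40 genes were higher and 0 lower at 24 h than at 6 h. SSR1 was at 278 and 278 CPM at 0 h, 311 CPM at 2 h, 354 and 374 CPM at 6 h and 552 and 533 CPM at 24 h (24 h against 6 h, 0.58 ± 0.07). The cystine importer SLC7A11 was also higher, with 192 and 204 CPM at 24 h against 110 and 135 CPM at 6 h (0.69 ± 0.12). The count of 149 genes fell to 3 without 24 h replicate 1, 22 without 24 h replicate 2, 41 without 6 h replicate 1 and 42 without 6 h replicate 2, and was 1025 (5.05%) with the block.

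**Figure D4:**
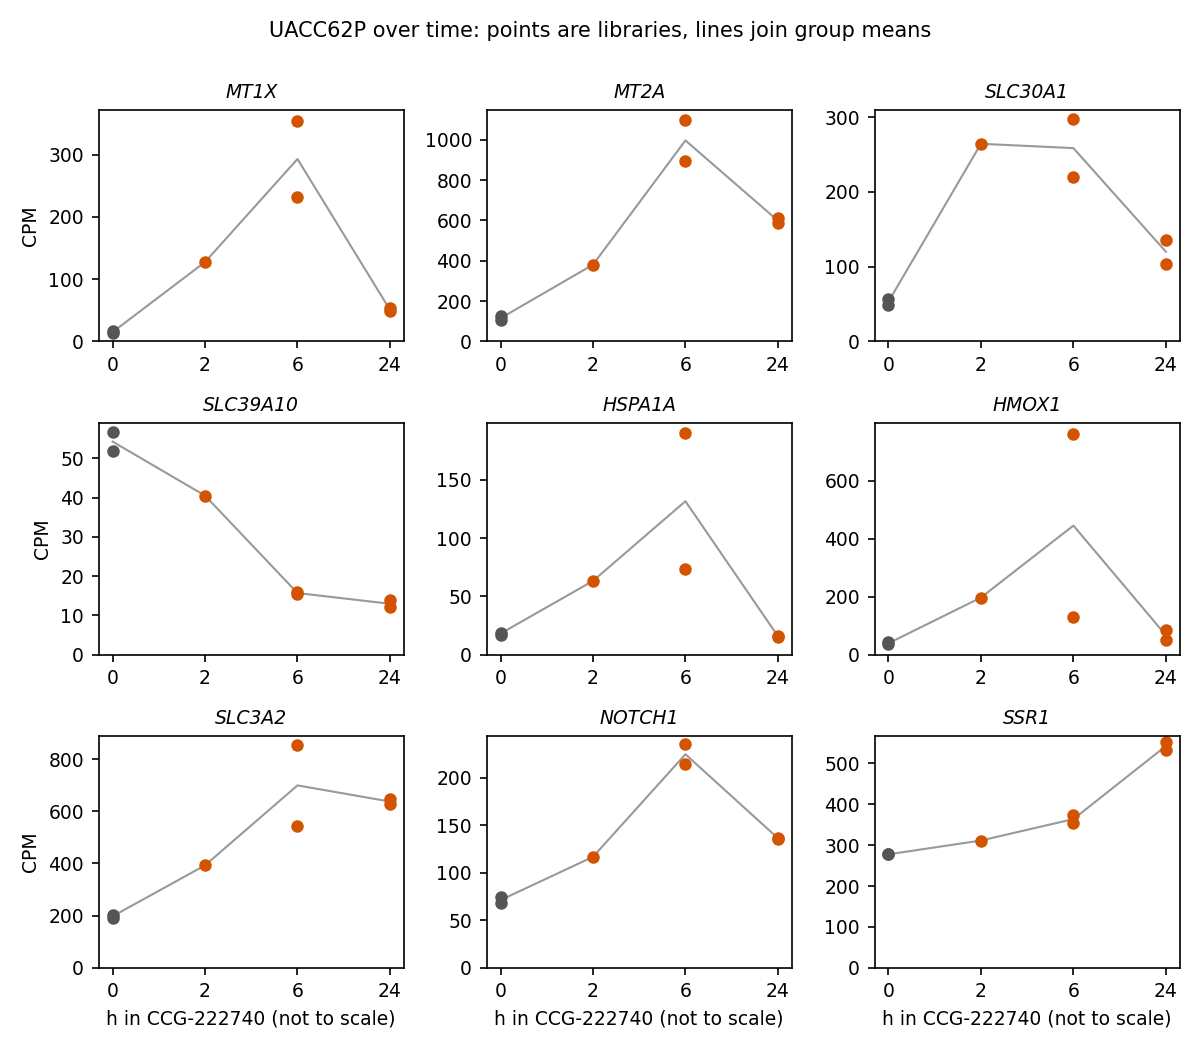
CPM (vertical, linear from 0) of 9 genes in UACC62P libraries at 0, 2, 6 and 24 h (horizontal, evenly spaced), with untreated libraries in grey, treated ones in orange, 1 library at 2 h and lines through the group means. The group means of MT1X, HSPA1A and HMOX1 are highest at 6 h, SLC39A10 stays low at 24 h and SSR1 is highest at 24 h. For HMOX1 the 2 h library (197 CPM) lies above 6 h replicate 1 (128 CPM) and below replicate 2 (761 CPM).

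The resistant derivative UACC62R gave a 6 h response in the same direction. Its libraries are not shared with the UACC62P comparison, but its 0 h libraries were untreated too. Effects of CCG-222740, of its vehicle or of culture that are common to both lines therefore cannot be told apart here. Of its genes 77 were higher (0.380%) and 58 lower (0.286%) at 6 h than at 0 h. The lines shared 51 higher genes (29.7% of the 172 in UACC62P and 66.2% of the 77 in UACC62R) and 34 lower genes (25.0% of 136 and 58.6% of 58), and 0 genes were called in opposite directions. Of the 172 higher genes in UACC62P, 165 (95.9%) were above 0 in UACC62R, and of the 136 lower genes 116 (85.3%) were below 0, against the same sign in both lines for 60.6% of all genes tested. The median log2 fold change of the higher genes was 0.62 in UACC62P and 0.38 in UACC62R, and that of the lower genes -0.58 and -0.31. As the genes were chosen by their change in UACC62P, its larger medians are a description.

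A test of the difference of response between the lines called 1 gene, MT2A (0.00493% of those tested), against 951 at an unadjusted p under 0.05, and 43 genes (0.212%) with the block. MT2A rose by 3.12 ± 0.11 in UACC62P and 1.48 ± 0.10 in UACC62R, a difference of 1.63 ± 0.14 (adjusted p = 0.00029). In UACC62R it stood at 2631 and 2677 CPM at 6 h, against 954 and 942 CPM at 0 h, so its untreated level was higher there than in UACC62P. MITF changed by -0.65 in UACC62P and 0.03 in UACC62R, where it stood at 49.5 and 53.6 CPM at 6 h and 53.4 and 47.6 CPM at 0 h, and the difference did not pass the test (adjusted p = 0.36) but passed it with the block (-0.69; adjusted p = 0.020). HMOX1 changed by 3.51 in UACC62P and by 1.88 in UACC62R, where it was not called (adjusted p = 0.157, and 0.022 with the block), with an adjusted p of 1 for the difference.

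**Figure D5:**
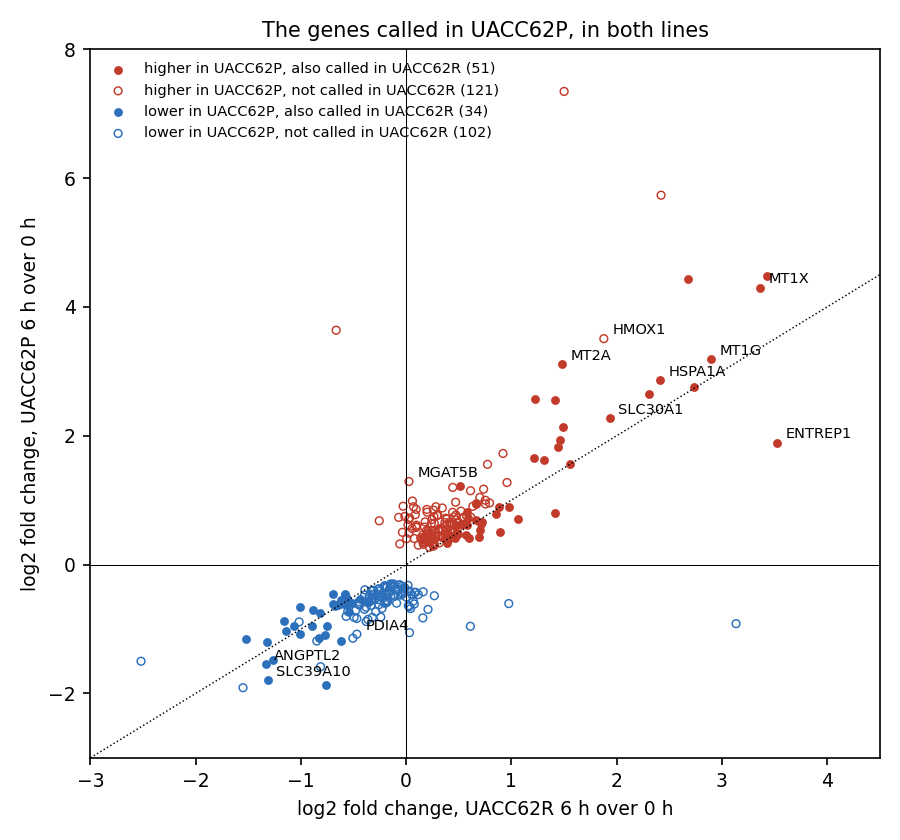
Log2 fold change at 6 h over 0 h in UACC62P (vertical) against UACC62R (horizontal) for the 308 genes called in UACC62P, filled where also called in UACC62R, with the dotted line marking equal change. Nearly all points lie in the upper right or lower left quadrant, and MT2A lies above the line.

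The calls differed in how much they rested on single libraries. Without 6 h replicate 1, 6 h replicate 2, 0 h replicate 1 or 0 h replicate 2 the count of 308 fell to 205, 59, 110 or 90. Of 68 named genes called, 28 stayed called without each of the 4 libraries in turn: MT1X, MT1G, MT2A, HSPA1A, SLC30A1, SLC39A10, SLC3A2, SLC38A9, NOTCH1, SUSD5, ARVCF, ENTREP1, FKBP4, ALG2, P4HA2, ANGPTL2, CHPF2, CHST14, PDIA4, DNAJC3, MANF, CCN3, MOGS, ADPGK, MINPP1, SGSH, PCDHA7 and MGAT5B. The other 40 lost the call without 1 or more of them. Those of SLC2A1, LIF, SLC7A11, HSPB1 and PCDH1 were lost without 6 h replicate 2 or 0 h replicate 2, and those of MITF, ITGA5, MMP14, NAGLU and PPARGC1A without 6 h replicate 2 or 0 h replicate 1. Those of SDC3, SIL1, CHSY1, LMAN1, VEGFC, NR4A3, UTP20, WDR43, P4HA1, JUN, CSGALNACT2, TFE3, MCOLN1, NPC1 and COPE were lost when any 1 of the 4 was left out. Those of HSPH1, BAG3, GCLM, DNAJB9, MAFG, SSR1, CHSY3, TRIM48 and TFAP2A were lost without each of 3 of the libraries, 6 h replicate 2 among them, and that of PER1 without 0 h replicate 2. That of LGI3 was lost without 6 h replicate 1 or 0 h replicate 1. Those of LAMB1 and PDE1C were kept only where 0 h replicate 1 was the library left out. In the fit of all 16 libraries 8 of the named genes were still called: MT1X, MT1G, MT2A, HSPA1A, SUSD5, ANGPTL2, MOGS and SGSH.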

How the data were processed

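RNA from 4 UACC62P libraries, set beside others of the series, was read as stranded poly(A) libraries of single 50 bp reads, per the labels' protocols. The submitters' processing notes name bcl2fastq 2.19.0, FastQC 0.11.5, Trimmomatic 0.33, HISAT2 2.1.0, HTSeq 0.6.1 and the build hg19. The sources used here give neither the strand setting nor the annotation release, and counts of genes lying over each other on the 2 strands may be mixed. The authors deposited raw read counts for 63677 Ensembl gene IDs per library, not normalized, with 5 summary lines (38.4 to 43.7% of all reads in the 4 libraries) that stayed out of library sizes and tests. Symbols came from a table that named 52181 IDs, and promoters from RefSeq for 136 higher and 104 lower genes.

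Genes kept by filterByExpr were scaled by TMM and tested by edgeR 4.0.16 (R 4.3.3) in 1 quasi-likelihood fit of 15 libraries, each group having its own coefficient (common dispersion 0.00985, residual degrees of freedom 7). Calls needed an adjusted p (Benjamini-Hochberg, all tested genes together) under 0.05. Standard errors were derived from each F statistic and its log2 fold change. The procedure was tested on simulated data.

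Same-numbered libraries deviated together from their group means in every one of the 21 group pairs that leave out UACC62P 2 h (correlations 0.17 to 0.72, and 0.39 between UACC62P 6 h and 0 h). The numbers were treated as pairs on the strength of these correlations, since no label says so, and blocked counts stand beside the main ones. Replicates differed by more than counting noise (chi-square per degree of freedom 12.0 at 6 h and 10.4 at 0 h).

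The comparison, the 34 gene lists (799 entries, 795 with an ID) and the tests were chosen with earlier results of these data known. Named genes were the 15 called genes with the largest fold change each way, with non-overlapping groups and an average log2 CPM of 1 or more, passing over pseudogenes, antisense, readthrough and unnamed genes. To these came up to 6 called members per list (or the one with the smallest p), 17 genes always given, and 5 each way from the other comparisons. Further genes, mostly members not called, were added as examples after their values were seen. The other fits included DESeq2 1.42.0. The depth of 27.3 to 33.3 M reads leaves genes under about 1 CPM imprecise.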

Additional observations from a re-analysis of the deposited data

Results flagged for a closer look

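MT2A was singled out because its 6 h response differed between the lines by 1.63 on the log2 scale (UACC62P minus UACC62R), the called difference in the test of 20280 genes. Genes that differed most between 24 h and 6 h in UACC62P were singled out likewise. Lower at 24 h were HSPA1A (log2 difference, 24 h minus 6 h, -3.06), HSPA1B (-2.78), HMOX1 (-2.74), MT1X (-2.53) and MT1G (-1.96). Higher at 24 h were MGAM2 (2.27), ALDH1L2 (0.83), PDE1C (0.81), MT-ND4L (0.77) and SLC26A2 (0.75). PDE1C, a phosphodiesterase, stood at 37.1 and 43.8 CPM at 24 h, against 24.1 and 21.9 CPM at 6 h, with 31.8 and 38.0 CPM at 0 h. MGAM2 was low throughout, at 6.82 and 6.79 CPM at 24 h against 1.64 and 1.15 CPM at 6 h. SLC26A2, a sulphate transporter, stood at 377 and 412 CPM at 24 h against 245 and 226 CPM at 6 h. All 13 protein genes of the mitochondrial genome were below 0 at 6 h against 0 h (-0.88 to -0.15), of which MT-ATP8 was called, and 3 with the block. For several of the others the groups overlapped, with 6 h replicate 1 the lowest library. MT-CO1, for example, stood at 1940 and 2942 CPM at 6 h, against 2597 and 2813 CPM at 0 h.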

How the results depend on the processing

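With 2 libraries a group, the counts of calls moved with the fit. The groups of every called gene at 6 h against 0 h in UACC62P did not overlap, so leaving out 1 library could hardly turn its sign. That none of the 68 named genes called there changed sign in the settings run therefore says little of their stability. Of the named genes not called there, 9 lay on both sides of 0 (ACTA2, ALDH1L2, ANKRD1, CYP1A1, HSF1, MRTFA, MRTFB, SRF and TAGLN). Given in the order UACC62P 6 h against 0 h, line difference, UACC62P 24 h against 6 h, UACC62R 6 h against 0 h and UACC62P 24 h against 0 h, the counts were 308, 1, 149, 135 and 780. The replicate block gave 1415, 43, 1025, 566 and 2448 calls, no filter on low counts 889, 98, 722, 451 and 1518, DESeq2 653, 23, 423, 293 and 1289, and all 16 libraries 10, 0, 0, 5 and 29. For UACC62P 6 h against 0 h, 931 genes had an unadjusted p under 0.05 in 16 libraries, and for the 2 counts of 0 the numbers were 225 and 856. Fits of only the groups compared gave 281, 1, 375, 55 and 1228. Of those 281 calls at 6 h against 0 h, 207 were among the 308. UACC62P libraries alone gave 517 calls at 6 h against 0 h, 357 at 24 h against 6 h and 1293 at 24 h against 0 h. Leaving out 1 replicate gave 59 to 205, 1 to 3, 3 to 42, 56 to 71 and 225 to 377 calls, where the spread of a lone library was taken from the other groups. DESeq2 size factors gave 322 calls at 6 h against 0 h (165 higher), library size alone 323 (201 higher) and a stricter filter 404. The cause of these moves was not tested. For UACC62P 6 h against 0 h the replicate block changed the call of 12 of 100 named genes, all from not called to called (ATF4, CCN2, CDC6, EGFR, ELOVL6, EPHA4, FARSA, GADD45B, MT-ND4L, PSMC1, SESN2 and TNFRSF10B). It also added calls for 4 named genes in the line difference (ENTREP1, MGAT5B, MITF and SLC2A1), 13 at 24 h against 6 h, 19 in UACC62R and 12 at 24 h against 0 h, and removed 0 there.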

Other observations

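Some groups outside the lists drew attention after their values were seen, so they carry no test as groups. Enzymes of ceramide and sphingomyelin synthesis tended upward in UACC62P at 6 h. Of 19 tested genes 4 were higher and 0 lower, where 0.848% and 0.671% of all genes tested were. In this group 17 lay above 0, and the median log2 fold change was 0.30, against 0 over all genes tested. The 4 act at different steps, but not every step moved. DEGS1 changed by 0.13 and CERS1 by -0.36, and neither was called. SPTLC2, a subunit of the first enzyme, stood at 46.6 and 53.8 CPM at 6 h, against 37.4 and 35.3 CPM at 0 h (0.46). KDSR, the next reductase, stood at 36.0 and 43.0 CPM at 6 h, against 29.5 and 29.9 CPM at 0 h (0.41). CERS6, a ceramide synthase, stood at 41.1 and 42.1 CPM at 6 h, against 27.9 and 24.8 CPM at 0 h (0.66). SGMS2, a sphingomyelin synthase, stood at 9.48 and 12.8 CPM at 6 h, against 6.34 and 5.51 CPM at 0 h (0.90). With the block 9 of the 19 were higher and 0 lower, against 3.64% and 3.33% of all genes tested.

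The heterogeneous nuclear ribonucleoproteins, which package and splice nuclear RNA, tended downward. Of 20 tested genes 3 were lower and 0 higher, where 0.671% and 0.848% of all genes tested were. Of the 20, 1 lay above 0, and the median was -0.24. HNRNPA2B1 stood at 2031 and 2050 CPM at 6 h, against 2476 and 2908 CPM at 0 h (-0.40), and HNRNPA3 (-0.41) and HNRNPD (-0.34) were also called. With the block 11 were lower. Of 3 tested protease-activated receptors, F2RL1 (0.68) and F2RL2 (0.75) were higher at 6 h. In UACC62R they changed by -0.26 and -0.01, but the test of the line difference without the block called neither. Among 14 tested genes of Notch receptors, ligands and targets, NOTCH1 was the called gene. The ligand JAG1 changed by 0.48 (adjusted p = 0.058, and 0.0046 with the block). The collagen chaperone SERPINH1 stood at 779 and 736 CPM at 6 h, against 586 and 526 CPM at 0 h (0.45), while the prolyl isomerase PPIB was lower (-0.30).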
